A study of Mus musculus with 16 samples.

Results

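A small group of genes lost most of its share of the oocyte transcriptome while the oocyte grew. The group holds 52 genes of the 25965 genes in the RNA table. A gene belonged to it when it lay on chromosomes 1 to 19, when its mean level in 10–30 µm oocytes was at least 2 RPKM (reads per kilobase of transcript, scaled by the mapped reads of the library), and when that mean was at least 4 times the mean in 60–65 µm oocytes. Of 6431 genes on these chromosomes with at least 2 RPKM in the smallest oocytes, 57 passed the 4-fold rule, a share of 0.886%. The selection left out 5 of them by name (Sohlh1, Syce1, a histone gene, a small nucleolar RNA host gene and a gene known only by a clone number). The genes were thus selected on RPKM in the 10–30 µm and 60–65 µm libraries, so the difference between those classes is given as a description, with no test.

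The study followed wild-type C57BL/6 mouse oocytes (C57BL/6Babr in the methods) by diameter through their postnatal growth in the ovary. Oocytes of 10–30 µm came from mice at postnatal days 5 to 7, those of 40–45 µm from days 7 to 12, those of 50–55 µm from days 9 to 14, those of 60–65 µm from days 13 to 16, and germinal vesicle (GV) oocytes, which are fully grown, from day 20, ages that stand in the methods and not in the labels. The supplementary list of libraries gives ages that differ in part from these. Each library was made from a pool of oocytes, and whether libraries A and B, or pools of neighbouring classes, came from different animals is not given in the sources used here, so p-values measure only the spread between these libraries, which may be technical. RNA was measured in 2 libraries (A and B) of each size class and in 1 GV column, CpG methylation was measured by RRBS (reduced representation bisulphite sequencing, which covers CpG-rich fragments) in 2 libraries of each class but the smallest, and by PBAT (whole-genome bisulphite sequencing from little DNA) in 1 library of 60–65 µm oocytes.

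Mouse oocytes enter meiosis in the fetal ovary, complete the pairing and recombination of their chromosomes around birth, and then stay arrested through a long period of growth inside the follicle. The proteins that build the synaptonemal complex and cohesin axes serve that earlier prophase, and the transcription factors FIGLA, SOHLH1 and SOHLH2 act while primordial follicles form and the first oocytes begin to grow. During growth the oocyte takes up DNA methylation anew, mostly over the bodies of transcribed genes.

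RNA levels of the 52 genes in the smallest oocytes ranged from 2.01 to 48.9 RPKM with a median of 4.53. Of these genes, 11 stood at 10 RPKM or more and 27 under 5 RPKM. In 60–65 µm oocytes the median was 0.802 RPKM and 33 genes were under 1 RPKM. The median ratio between both ends was 5.66, with 7 genes at 8-fold or more, against 1.05 for all genes of at least 2 RPKM. Nearest inside the 4-fold limit were Serf1 and both Myot and Figla (4.03 each), and nearest outside were Gipc1 (3.99), Spg21 (3.89) and Tfap4 (3.79). At the limit of 2 RPKM, Ctsf (2.03) and Mpdu1 (2.13) were just inside, and Kdm5b (1.90), Cd81 (1.78) and Ap3b2 (1.76) just outside.

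The fall was spread over the whole of growth rather than placed at 1 step. The median ratio between successive classes was 2.09 from 10–30 to 40–45 µm, 1.77 from 40–45 to 50–55 µm and 1.52 from 50–55 to 60–65 µm. The class mean fell at all 3 steps in 51 of the 52 genes, a count that the selection on both end classes favours. Its share over all genes was not computed. Both libraries of the larger class lay below both of the smaller one in all 52 genes at the first step (37.0% of genes of at least 2 RPKM), in 51 at the second (29.8%) and in 48 at the last (23.7%), where the first and last steps use libraries of the selection. By 40–45 µm the median gene had covered 43.3% of its total log2 fall, and by 50–55 µm 77.7%. The same shares, of a log2 change in either direction, had medians of 45.3% and 80.8% over the 6431 genes of at least 2 RPKM. The median ratio of those genes between both ends was 1.05, so many of their shares divide by a small change and are a weak reference. Nothing about the timing is read as particular to the falling genes. Early fallers were Dnpep, an aspartyl aminopeptidase, with 61.3% of the fall reached at 40–45 µm, the cathepsin genes Ctsl (59.7%) and Ctsf (56.4%), the adhesion molecule gene Epcam (57.9%) and Rnd2 (54.6%). Late fallers were Myot (11.9%), which encodes the muscle Z-disc protein myotilin, Mpdu1 (28.3%), the ciliary genes Lrrc6 (29.3%) and Kifap3 (37.7%), the HMG-box gene Bbx (31.7%) and Cstb (37.7%), an inhibitor of cathepsins.

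**Figure D1:**
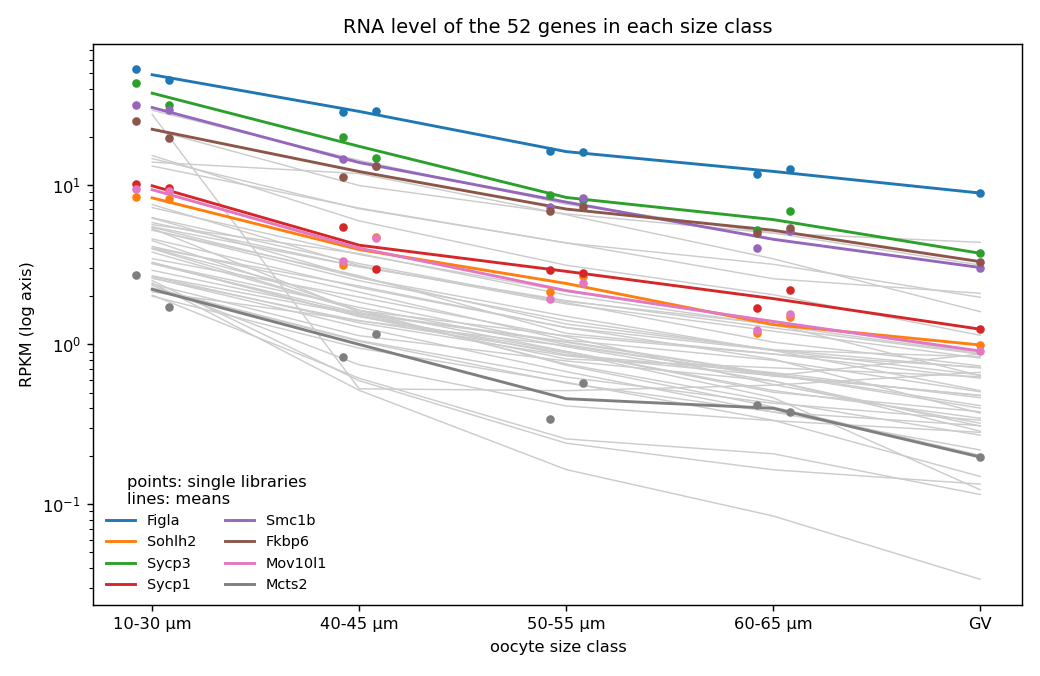
RPKM (log axis) of the 52 genes in 4 size classes of growing oocytes and in GV oocytes. Lines join class means, coloured points are single libraries of the 8 genes that belong to a list of germ-cell, meiotic, piRNA or imprinted genes, and grey lines are the other genes; Figla stays highest throughout, from 48.9 RPKM to 8.87 RPKM in GV oocytes, and 1 grey line drops from 27.6 RPKM to 0.528 RPKM at the first step (Lars2).

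RPKM is a share of a library and not an amount per oocyte. A sphere of 62.5 µm diameter, the middle of the largest class, has 30.5 times the volume of one of 20 µm. RNA per oocyte was not measured, so a lower number of transcripts and a constant number in a growing RNA pool cannot be told apart in these values.

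The most abundant of the falling genes was Figla (chr6:86017191-86020996, plus strand, coordinates on GRCm38 throughout), a basic helix-loop-helix factor required for primordial follicles and for the zona pellucida genes. Its libraries read 52.7 and 45.0 RPKM at 10–30 µm, 28.7 and 28.8 at 40–45 µm, 16.26 and 15.99 at 50–55 µm, 11.6 and 12.6 at 60–65 µm, and 8.87 in GV oocytes. No library of a class overlapped with the next class. The class means were 48.9 ± 5.44 RPKM at the start and 12.1 ± 0.711 at the end (SD, n = 2), a ratio of 4.03. Sohlh2, the partner of SOHLH1 in germ cells, went from 8.36 and 8.18 RPKM through 3.16 and 4.69, then 2.12 and 2.70, to 1.17 and 1.49, with 0.992 RPKM in GV oocytes. Of 22 germ-cell transcription factors listed, these were the only ones that met the rule. The list does not hold Sohlh1, which was left out by name and went from 47.3 to 1.45 RPKM. Nobox, an oocyte homeobox factor named after its values were seen, stood at 57.1 RPKM in the smallest and 59.3 RPKM in the largest growing class.

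Among 54 genes listed for meiotic prophase, 3 met the rule, and all 3 encode parts of the chromosome axis or the synaptonemal complex. Of the 54, 44 had RNA values and 30 stood at 1 RPKM or more at 10–30 µm. Over all genes of at least 2 RPKM the share past the rule was 0.886%. Syce1, left out by name and absent from the list, went from 5.30 to 0.568 RPKM (9.34-fold). Sycp3 (chr10:88459569-88473236, plus strand), which forms the lateral element, read 43.1 and 31.7 RPKM, then 20.001 and 14.8, then 8.57 and 8.08, then 5.24 and 6.86, and 3.72 in GV oocytes. Smc1b (chr15:85064691-85131957, minus strand), the meiotic cohesin subunit, read 31.7 and 29.2 RPKM, then 14.4 and 13.1, then 7.29 and 8.27, then 4.01 and 5.10, and 3.03 in GV oocytes. Sycp1 (chr3:102818499-102936100, minus strand), the transverse filament, read 10.1 and 9.56 RPKM, then 5.40 and 2.96, then 2.94 and 2.80, then 1.69 and 2.18, and 1.25 in GV oocytes. The ratios over the whole of growth were 6.19 for Sycp3, 6.68 for Smc1b and 5.09 for Sycp1. Sycp2, the other lateral element gene, was at 4.33 RPKM in the smallest and 5.95 RPKM in the largest class. A second gene, Chpt1, runs antisense over the whole of Sycp3 at 0.364 RPKM in the smallest oocytes and 0.185 RPKM in the largest, and the libraries were strand-specific, but whether strand was used in counting is not given in the sources used here.

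The piRNA pathway silences transposons in the germ line, and 2 of its 24 listed genes, 23 of them with RNA values, met the rule. Fkbp6, an immunophilin needed for meiosis and for piRNA loading in the male germ line, read 24.99 and 19.5 RPKM at 10–30 µm, 11.1 and 13.05 at 40–45 µm, 6.81 and 7.27 at 50–55 µm and 4.99 and 5.37 at 60–65 µm. Mov10l1, the RNA helicase that starts piRNA processing, read 9.46 and 9.14 RPKM, then 3.35 and 4.67, then 1.93 and 2.42, then 1.23 and 1.56. GV levels were 3.30 RPKM for Fkbp6 and 0.909 RPKM for Mov10l1, lower than in either 60–65 µm library. Among listed maternal imprinted genes the rule found Mcts2 alone, a retrogene inside an intron of H13 that is expressed from the paternal allele in somatic tissue. Its level was low, at 2.70 and 1.72 RPKM in the smallest oocytes, 0.831 and 1.17 at 40–45 µm, 0.343 and 0.571 at 50–55 µm, 0.420 and 0.376 at 60–65 µm and 0.197 in GV oocytes, while H13, on the same strand, stood at 2.90 RPKM in the smallest and 5.29 RPKM in the largest class.

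The steepest fall that both smallest-class libraries shared was that of Rbm46 (chr3:82837233-82876483, minus strand), an RNA-binding protein of germ cells needed for meiosis. It read 2.59 and 2.26 RPKM at 10–30 µm, 0.447 and 0.585 at 40–45 µm, 0.166 and 0.163 at 50–55 µm and 0.0851 and 0.0834 at 60–65 µm, a 28.8-fold ratio. Its GV value of 0.0338 RPKM corresponds to about 17 reads, the fewest of any of the 52 genes in any library. Epcam read 2.79 and 2.23 RPKM at the start and 0.149 and 0.179 at the end, a ratio of 15.3. Marcksl1, a MARCKS-like substrate of protein kinase C, went from 4.85 and 5.80 RPKM to 0.439 and 0.441 (12.1-fold). Ctsf (9.85-fold), Eif5a2, the second eIF5A gene (9.32-fold), and Ly6a, which encodes the surface antigen SCA-1 (8.69-fold), followed. Ift27 (7.43-fold), Dnpep (7.02-fold), the aminoacylase gene Acy1 (6.91-fold), Smc1b and Mov10l1 (6.68-fold each) completed the steepest 12 with Lars2.

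Lars2, the mitochondrial leucyl-tRNA synthetase, stood apart from the other genes. It read 0.889 RPKM in library A and 54.2 RPKM in library B of 10–30 µm oocytes, and between 0.458 and 0.669 RPKM in every other library. Its ratio of 49.6 therefore rests on 1 library, and on the A library alone it would not have met the rule. Myot and Rnd2 were among the genes that also needed the B library, while 13 genes, Figla and Fkbp6 among them, fell short of the rule on the B library alone. In 31 genes the rule held for every pairing of 1 smallest-class with 1 largest-class library.

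Other abundant genes of the group belonged to none of the gene lists. Malat1, a nuclear long noncoding RNA, went from 30.0 and 28.5 RPKM to 4.48 and 5.49. Dnajc15, a co-chaperone of the mitochondrial inner membrane, went from 24.8 and 19.6 RPKM to 4.45 and 5.50. Ift27 (17.1 and 13.4 to 1.87 and 2.23 RPKM) encodes an intraflagellar transport GTPase, Myl12b (15.1 and 14.01 to 2.40 and 2.76) a myosin light chain, Myot (13.5 and 14.2 to 3.06 and 3.81) myotilin, and Ufc1 (14.4 and 11.8 to 2.84 and 3.51) the conjugating enzyme for UFM1.

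A pair of further sets was put together after the values had been seen. They hold only genes that met the rule. Other lysosomal and ciliary genes were not counted, so neither set shows how such genes behaved as a class. Lysosomal enzymes were represented by Ctsl, Ctsf, Ctsa and the thiol reductase gene Ifi30. Ctsl read 4.41 and 3.53 RPKM in the smallest and 0.888 and 0.850 RPKM in the largest growing oocytes, and Ctsa read 3.20 and 3.26 RPKM against 0.518 and 0.661 RPKM. Ifi30 read 4.11 and 3.92 RPKM against 0.903 and 0.936 RPKM. The ciliary set held Ift27, Kifap3, which is the kinesin-2 adaptor, Lrrc6, an assembly factor of dynein arms, and Nme7. Kifap3 read 5.82 and 6.62 RPKM against 0.856 and 1.21 RPKM, and Lrrc6 5.82 and 5.42 RPKM against 1.22 and 1.42 RPKM.

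What the genes shared beyond the rule was sought first in their promoters. RefSeq promoter windows (GRCm38.p6, 250 bases before and 50 after the start) whose start lay within 500 bases of the gene start in the RNA table were found for 38 of the 52 genes, for 14993 genes of chromosomes 1 to 19 in all, and for 4584 of those with at least 2 RPKM in the smallest oocytes. The hexamer CACGTG, a palindromic E-box that basic helix-loop-helix proteins such as MYC-MAX dimers and USF can bind, was present in 14 of the 38 windows (36.8%), against 8.10% of all windows and 11.9% of those of at least 2 RPKM. The windows shown are the 250 bases before the start of 6 of these genes, with each CACGTG in capitals, chosen after the matches were seen as examples of meiotic (Sycp3, Sycp1), piRNA (Fkbp6), steeply falling (Rbm46, Eif5a2) and imprinted (Mcts2) genes. The last 18 bases of the Sycp3 window lie inside the gene as the RNA table draws it.
Sycp3, chr10:88459337-88459586, plus strand: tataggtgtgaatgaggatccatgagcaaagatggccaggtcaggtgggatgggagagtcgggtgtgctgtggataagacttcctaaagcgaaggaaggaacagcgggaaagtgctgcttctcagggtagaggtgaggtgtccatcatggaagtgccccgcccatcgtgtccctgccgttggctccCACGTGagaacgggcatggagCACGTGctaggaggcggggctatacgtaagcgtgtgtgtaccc
Sycp1, chr3:102936101-102936350, minus strand: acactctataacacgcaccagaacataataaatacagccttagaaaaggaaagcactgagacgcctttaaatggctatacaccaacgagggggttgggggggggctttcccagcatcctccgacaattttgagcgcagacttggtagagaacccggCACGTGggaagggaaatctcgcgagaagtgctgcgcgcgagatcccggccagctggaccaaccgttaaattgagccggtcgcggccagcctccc
Fkbp6, chr5:135350045-135350294, minus strand: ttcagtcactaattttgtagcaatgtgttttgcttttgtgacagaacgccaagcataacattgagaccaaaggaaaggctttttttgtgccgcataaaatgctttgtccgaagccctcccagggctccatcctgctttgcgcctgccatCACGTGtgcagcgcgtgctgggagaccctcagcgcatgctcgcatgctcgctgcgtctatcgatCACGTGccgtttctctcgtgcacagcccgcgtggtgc
Rbm46, chr3:82876484-82876733, minus strand: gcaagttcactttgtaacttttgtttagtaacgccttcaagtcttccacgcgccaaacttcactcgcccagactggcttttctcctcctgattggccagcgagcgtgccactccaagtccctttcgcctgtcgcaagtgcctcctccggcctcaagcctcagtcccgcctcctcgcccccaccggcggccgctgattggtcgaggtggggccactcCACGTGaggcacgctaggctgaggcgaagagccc
Eif5a2, chr3:28781027-28781276, plus strand: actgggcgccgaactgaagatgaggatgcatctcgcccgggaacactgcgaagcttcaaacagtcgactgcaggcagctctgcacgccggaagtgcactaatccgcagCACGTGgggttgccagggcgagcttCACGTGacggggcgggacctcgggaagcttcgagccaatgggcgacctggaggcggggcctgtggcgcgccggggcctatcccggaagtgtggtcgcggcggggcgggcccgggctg
Mcts2, chr2:152686898-152687147, plus strand: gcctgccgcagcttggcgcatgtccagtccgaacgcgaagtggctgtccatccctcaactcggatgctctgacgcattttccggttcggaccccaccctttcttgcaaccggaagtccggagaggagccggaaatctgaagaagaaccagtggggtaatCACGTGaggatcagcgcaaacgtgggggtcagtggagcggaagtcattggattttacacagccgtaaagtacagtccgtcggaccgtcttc

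Sycp3, Fkbp6 and Eif5a2 held the hexamer at 2 places each. In Sycp3 it began 64 and 43 bases before the start, in Fkbp6 101 and 37, in Eif5a2 142 and 117, in Sycp1 94, in Mcts2 91 and in Rbm46 34. The other genes with a match were Mov10l1, Ifi30, Ctsl, Acy1, Epcam, Dnpep, Zfp947 and Ctsf. Of the 17 matches in these windows, 10 lay within 100 bases before the start, and 49.4% of the 628 matches in windows of at least 2 RPKM did so as well. Figla, Sohlh2 and Smc1b held none in their windows.

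The share with CACGTG did not grow stepwise with the size of the fall. Windows of genes with a ratio of 3 to 4 between the smallest and largest class held it in 4 of 40 (10.0%), those with a ratio of 2 to 3 in 32 of 254 (12.6%), and those within 1.5-fold either way in 337 of 3003 (11.2%). Genes at least 4-fold higher in the largest class held it in 1 of 19. These shares are descriptions over genes, with no test, and CACGTG was the hexamer of 8 motifs searched whose share differed most.

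**Figure D2:**
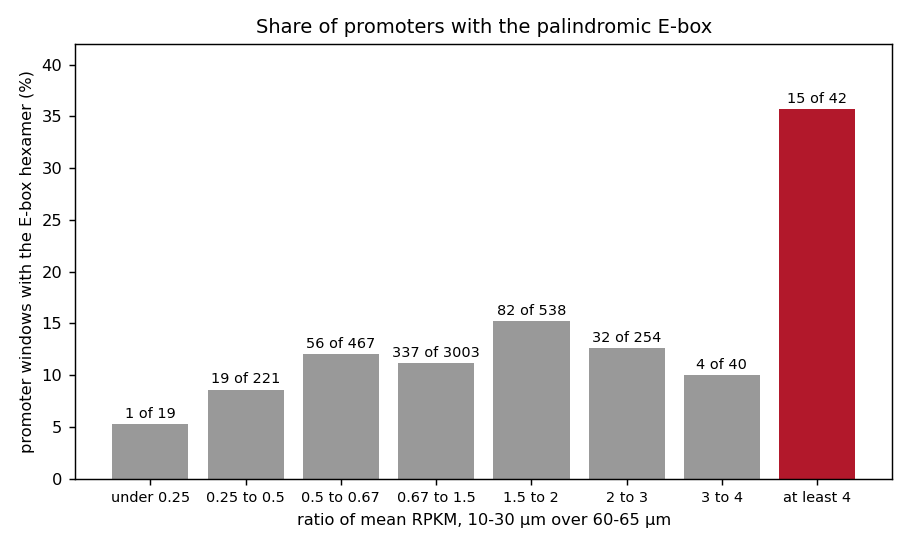
Percent of promoter windows with CACGTG on the vertical axis, for all genes of at least 2 RPKM in 10–30 µm oocytes binned by the ratio of mean RPKM at 10–30 µm over that at 60–65 µm, with the number of windows above each bar. The bar for a ratio of at least 4 (15 of 42, which includes genes left out by name) reaches 35.7%, and the other bars lie between 5.26% and 15.2%.

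Other motifs, also searched on both strands, differed less or were scarcer. The CCAAT box was found in 39.5% of the windows of the falling genes and in 41.2% of those of at least 2 RPKM, and CAGGTG, another E-box, in 23.7% and 17.3%. GGGCGG (57.9% against 69.6%), CGCGC (44.7% against 63.8%) and TGACGT (7.89% against 14.4%) were less common in the falling genes, TATAAA was found in 2.63% against 5.85%, and TAATTA in 5.26% against 2.40%. Matches of different motifs may overlap by a few bases. The windows of the falling genes were poorer in CpG, with a median of 16 per window against 23 for genes of at least 2 RPKM and 15 for all genes.

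The step from 40–45 to 50–55 µm joins the libraries that the selection did not use, so it could be tested. The spread was estimated over all 8 growing-oocyte libraries, those of the selection included. All 52 genes had a lower estimate at 50–55 µm, and 36 fell past an adjusted p of 0.05 (limma, over 10518 genes), while 16 did not pass and 0 rose. With the fit on the 4 libraries of this step 40 fell, but the filter and the scaling still used all 8 libraries. With no filter on low values (20052 genes tested) 19 fell. Among all genes tested, 3.21% fell and 5.89% rose. The median log2 change of the 52 genes was -0.79, against 0.01 for all genes, whose quartiles were -0.17 and 0.20. With a pseudocount of 1 in place of 0.1 the median of the 52 genes was -0.52. Within library letter A the median was -0.76 with 51 genes negative, and within letter B -0.83 with 52 negative. Without library B of 40–45 µm, or without library A of 50–55 µm, 0 of the 52 genes and 0 of all genes passed in limma (42 and 46 of the 52 were lower at an unadjusted p under 0.05), and without library B of 50–55 µm 14 of the 52 did. The median log2 change was -0.69 without library B and -0.90 without library A of 40–45 µm, and -0.72 without library A and -0.86 without library B of 50–55 µm.

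The largest falls that passed were those of Rbm46 (log2 change -1.23 ± 0.15, SE, adjusted p = 0.011), Cstb (-1.16 ± 0.18, adjusted p = 0.015), Sycp3 (-1.06 ± 0.22, adjusted p = 0.025) and Eif5a2 (-1.06 ± 0.16, adjusted p = 0.015). Epcam (-1.05), Ctsf (-1.01), Marcksl1 (-0.97) and Fkbp9 (-0.94), an endoplasmic reticulum isomerase gene, followed. Rbm46 met the filter of 0.5 RPKM in 2 libraries only with the 10–30 µm libraries of the selection. In this step only library B of 40–45 µm (0.585 RPKM) reached that level, so its entry into the test depended on the selection. Figla fell by 0.85 on the log2 scale (SE 0.12, adjusted p = 0.014) and Smc1b by 0.84 (SE 0.14, adjusted p = 0.017). The genes that missed the threshold included Mcts2 (-1.02 ± 0.27, adjusted p = 0.052), Sohlh2 (-0.69 ± 0.19, adjusted p = 0.058) and Sycp1 (-0.49 ± 0.26, adjusted p = 0.25), whose A libraries differed by 0.90 on the log2 scale in the falling direction and whose B libraries by 0.08. Lars2, at 0.539 and 0.517 RPKM before and 0.557 and 0.470 RPKM after, had a log2 change of -0.05 ± 1.40, an SE that its 10–30 µm pair sets, since all classes share 1 spread.

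**Figure D3:**
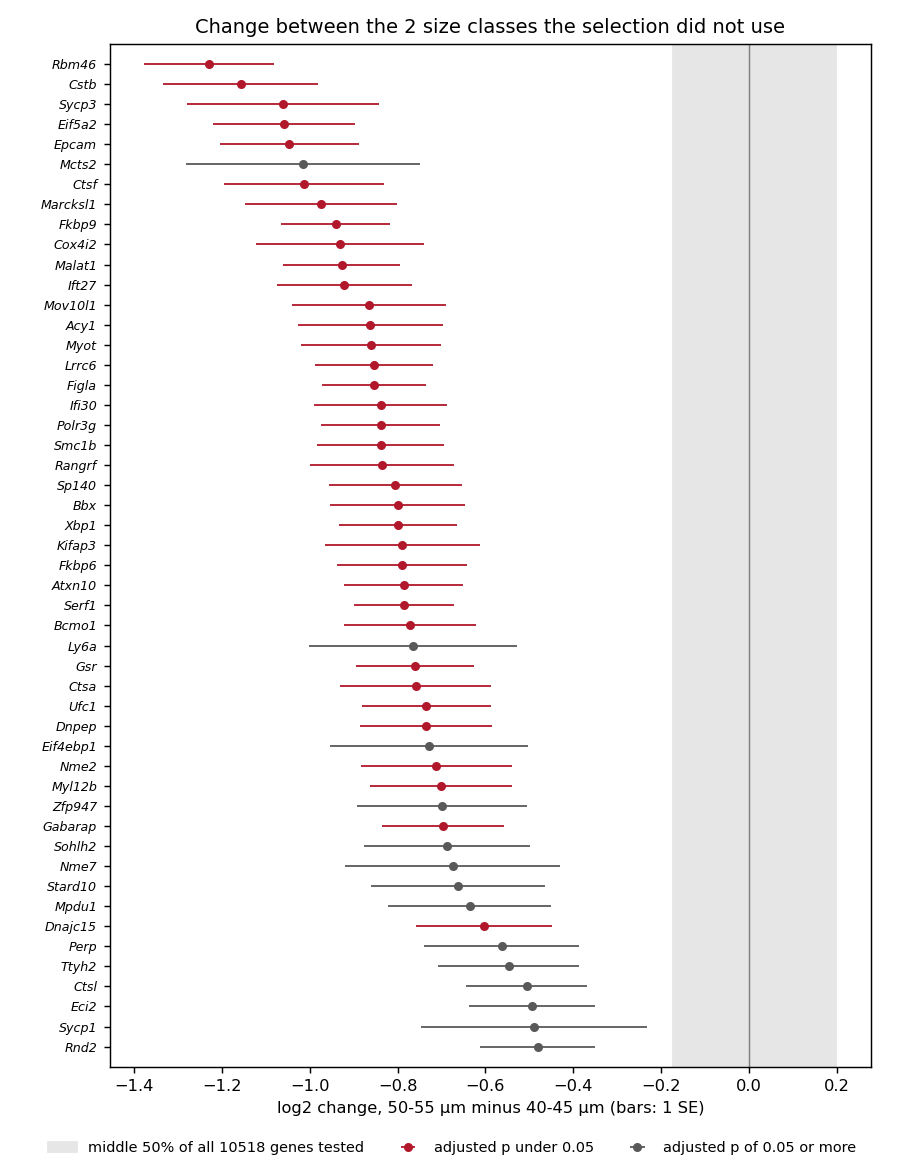
Log2 change in RNA level from 40–45 to 50–55 µm oocytes (horizontal axis) with bars of 1 SE for 50 of the 52 genes, with Lars2 left off for its SE of 1.40 and 1 gene not shown. Red points passed an adjusted p of 0.05, dark grey points did not, and the pale band spans the middle 50% of all 10518 genes tested; each of the 50 points lies to the left of the band.

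The lists of germ-cell and other genes were read over the same step, with the falling genes counted in their lists. Of 33 meiotic prophase genes tested over this step, 6 fell and 0 rose, namely Sycp3, Smc1b, Hormad1 (log2 change -0.83), Prdm9 (-0.73), Zcwpw1 (-0.60) and Mael (-0.53), and the list's median was -0.09, against 0.01 for all genes. Of 20 piRNA genes tested, 4 fell and 0 rose, namely Mov10l1, Fkbp6, Mael and Piwil2 (-0.48), with a median of -0.06. Of 18 germ-cell transcription factors, Figla and Tbpl2 (-0.42) fell and Gata4, Obox1, Obox2 and Obox5 rose. Of 15 oocyte identity genes 0 fell and Bmp15 rose, and of 17 DNA methylation genes Kdm5b fell and Dnmt3b and Dnmt3l rose. In the other lists 1 pluripotency gene fell and 3 rose of 16, 1 cell cycle gene fell of 29, 1 imprinted gene fell and 1 rose of 9, and 2 Wnt genes rose of 16, 1 BMP and Notch response gene of 18, and 1 immediate early gene of 14. Of the few markers of other cells that were tested, 4 of 6 granulosa, 1 of 4 stromal and 2 of 4 epithelial, endothelial and blood markers rose and 0 fell. The stromal median was -0.65, where Col1a1 (-0.96), Col3a1 (-0.65) and Col1a2 (-0.65) did not pass and Myh11 rose.

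Markers of other ovarian cells moved in both directions. The summed level of 26 granulosa markers was 14.1 and 15.6 RPKM in the smallest oocytes and 24.8 and 22.6 RPKM at 60–65 µm, with 2 and 5 of them at 1 RPKM or more, and that of the epithelial, endothelial and blood markers 5.13 and 7.30 RPKM against 21.5 and 17.3 RPKM. The stromal and muscle sum was 7.91 and 6.37 RPKM at the start and 8.18 and 6.98 RPKM at the end, with Myh11, a smooth muscle myosin gene, going from 2.40 to 5.53 RPKM in it. The other 23 stromal markers summed to 5.50 and 3.99 RPKM at 10–30 µm, 2.52 and 1.26 at 40–45 µm, 1.73 and 1.06 at 50–55 µm, and 2.04 and 2.06 at 60–65 µm. Of them, 14 were lower in both 60–65 µm libraries than in either 10–30 µm library and 6 were higher, and the collagen genes Col1a1 (1.39 to 0.320 RPKM) and Col3a1 (0.980 to 0.238 RPKM) were the most abundant of the lower ones. The summed level of these markers was highest in the 10–30 µm libraries, and its part in the fall of the 52 genes was not tested. All 15 oocyte identity genes were above 1 RPKM in every class. RPKM steps of low genes correspond to 99400000 to 198300000 reads per library. Of the 52 genes, 46 were higher in B than in A at 60–65 µm, 45 at 40–45 µm and 34 at 50–55 µm, but 15 at 10–30 µm, and the part of this letter difference in the fall was not tested. The same counts over all genes were not made, so whether the letter difference is particular to the 52 genes is not known.

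In GV oocytes most of the genes read lower still. The GV column holds 1 value per gene and the 60–65 µm libraries were used in the selection, so the difference is given with no test. It lay below both 60–65 µm libraries in 48 of the 52 genes, against 48.2% of all genes of at least 2 RPKM. The median log2 difference to 60–65 µm oocytes was -0.50, and 0.00 over the 10518 genes tested; with a pseudocount of 1 in place of 0.1 it was -0.21. At least 2-fold lower were 2 genes, Mpdu1 (0.346 and 0.583 RPKM at 60–65 µm, 0.123 in GV) and Myot (3.06 and 3.81 RPKM, then 1.605), against 0.266% of all genes, and 0 were 2-fold higher, against 0.399%. Nme2 (-0.93), Xbp1, a transcription factor of the unfolded protein response (-0.92) and Rnd2 (-0.81) came next. Nme7 (0.570 and 0.703 RPKM, then 0.871) and Lars2 were the 2 genes with a higher GV estimate, and Sp140 (-0.09), Rangrf (-0.13), Dnajc15 (-0.15) and Dnpep (-0.15) changed least. Nme2 shares its strand and nearly its whole length with the readthrough gene Gm20390 (9.91 RPKM at 10–30 µm, 2.69 at 60–65 µm), so its level is uncertain.

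DNA methylation was not used in the selection. Over gene bodies (more than 1 kb inside the gene, genes of at least 4 kb, at least 10 cytosine positions with 5 reads or more), 41 of the 52 genes could be measured in the PBAT library of 60–65 µm oocytes. Their median was 21.1%, with quartiles of 11.8% and 39.8%, against a median of 27.6% over 16827 genes. Among genes of like RNA level the medians lay further apart in the bins from 0.5 to 10 RPKM. Of genes at 0.5 to 2 RPKM in 60–65 µm oocytes, 25 falling genes had a median of 21.1% and all 2686 genes one of 47.2%. In this bin 18 of the 25 lay below the lower quartile of all genes (29.9%). At 2 to 10 RPKM the medians were 28.7% for 7 falling genes and 51.2% for 4000 genes, with 5 of the 7 below the lower quartile of 38.7%. Under 0.5 RPKM they were 11.3% for 9 falling genes and 9.37% for 8604 genes. Binned instead by level in the smallest oocytes, 33 falling genes at 2 to 10 RPKM had a median of 19.8% against 51.1% for 4042 genes. With 1 library there is no replicate error, and these medians are descriptions over genes. With at least 10 reads a position, the 17 falling genes left at 0.5 to 2 RPKM had a median of 31.2% against 48.7%. Over whole genes, the first 1 kb included, the medians were 13.3% against 18.6% over all levels, 14.3% against 32.7% at 0.5 to 2 RPKM and 13.6% against 34.1% at 2 to 10 RPKM.

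**Figure D4:**
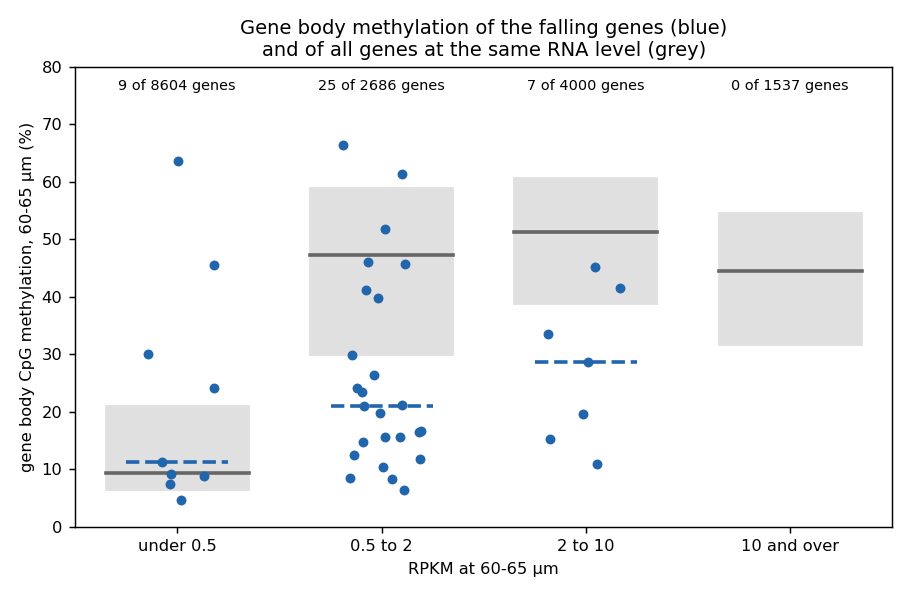
Mean CpG methylation of gene bodies (percent) in the PBAT library of 60–65 µm oocytes, by RNA level in the same class. Grey boxes span the quartiles of all genes with a line at the median, blue points are the falling genes and dashed lines their medians; the blue medians lie below the boxes at 0.5 to 2 and 2 to 10 RPKM (21.1% and 28.7%) but not under 0.5 RPKM.

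The genes varied widely around these medians. The highest gene bodies were those of Mov10l1 (66.4%, 281 positions), Eif5a2 (63.6%, 35 positions), Lars2 (61.4%, 210 positions), Kifap3 (51.8%), Lrrc6 (46.0%), Sycp1 (45.6%), Mpdu1 (45.5%) and Myot (45.1%). Pooling the calls of Lars2 gave a 95% Wilson interval of 40.6% to 44.2%, below its mean over positions, so its most deeply covered positions were less methylated. The lowest were Epcam (4.64%, 149 positions), Stard10, a lipid transfer gene (6.33%), Atxn10 (7.51%, 279 positions), Ctsa (8.28%), Nme7 (8.44%), Dnpep (8.84%), Ctsf (9.17%) and Nme2 (10.3%). Atxn10 spans 127 kb, and Epcam and Stard10 15.1 and 29.5 kb, so low values were not confined to short genes. Intervals cover counting error only.

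Gene starts were nearly free of methylation in most of the group. In the 1 kb around the start, 44 genes could be measured with PBAT and their median was 4.28%, against 3.43% for 17051 genes. At least 10% was reached by 7 of the 44, by 5.14% of genes of at least 2 RPKM in the smallest oocytes, by 11.5% of all 17051 genes and by 17.2% of genes under 0.5 RPKM at 60–65 µm. These were Mcts2 (52.3%, 57 positions), Gabarap, an autophagy gene (45.8%, 8 positions), Mpdu1 (41.2%, 33 positions), the nuclear body gene Sp140 (25.6%, 18 positions), Figla (21.7%, 14 positions, Wilson interval of pooled calls 13.7% to 31.4%), Nme7 (13.8%, 8 positions) and Acy1 (11.5%, 20 positions). The cytosines of the CACGTG matches, in windows printed above or not, were covered thinly. Over the 14 genes with a match, 8 of 125 calls at these cytosines were methylated, of which Mcts2 had 4 of 10, Mov10l1 3 of 10 and Ctsf 1 of 1.

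RRBS followed methylation through growth at few of the genes. For gene bodies, 4 of them had enough positions in all 6 libraries and a mean of at least 5%, and 2 gained methylation from 40–45 to 60–65 µm (edgeR quasi-likelihood test), where 88.2% of the 2510 genes tested did. The minimum shaped this count, since Rnd2 reached a mean of 5% only through its 60–65 µm values, and Ctsa (29.4%) and Nme7 (24.1%) only through library B of 50–55 µm, so nothing is read from 2 of 4. Mov10l1 read 15.1% and 22.0% at 40–45 µm, 41.8% and 20.2% at 50–55 µm and 57.7% and 63.8% at 60–65 µm (adjusted p = 8.7e-05). Rnd2, whose start is overlapped by the antisense gene Vat1, read 1.04% and 1.02%, then 6.47% and 3.91%, then 15.9% and 17.8% (adjusted p = 2.9e-05). With no minimum of the mean, the adjusted p of Rnd2 was 3.25e-04 (edgeR). Neither gene's largest class overlapped with its smallest. Ctsa and Nme7 did not pass, at 2.66% and 1.94% and at 4.22% and 0% in the largest class. With no minimum of the mean, 7 of 13 genes gained methylation against 50.6% of 4963.

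At the Mcts2 start, RRBS measured 18 positions in each library. They were methylated to 2.05% and 0.397% at 40–45 µm, 22.1% and 60.2% at 50–55 µm, and 49.9% and 54.2% at 60–65 µm, so the 50–55 µm libraries lay far apart from each other and the other classes did not. Of 34 starts measured in all 6 libraries, 0 reached 10% in either 40–45 µm library, and 1, that of Mcts2, did so in both 60–65 µm libraries. Over all starts measured in each library, 0.233% and 0.586% reached 10% at 40–45 µm, and 1.80% and 1.93% at 60–65 µm. The Gabarap start, not measured in all 6 libraries, stood at 21.2% and 34.4% at 60–65 µm (9 positions each). Library B of 50–55 µm held values that no other library shared, at the Sycp1 start (29.4%) and in the bodies of Atxn10 (52.6%, 5 positions) and Ctsa (29.4%, 17 positions).

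**Figure D5:**
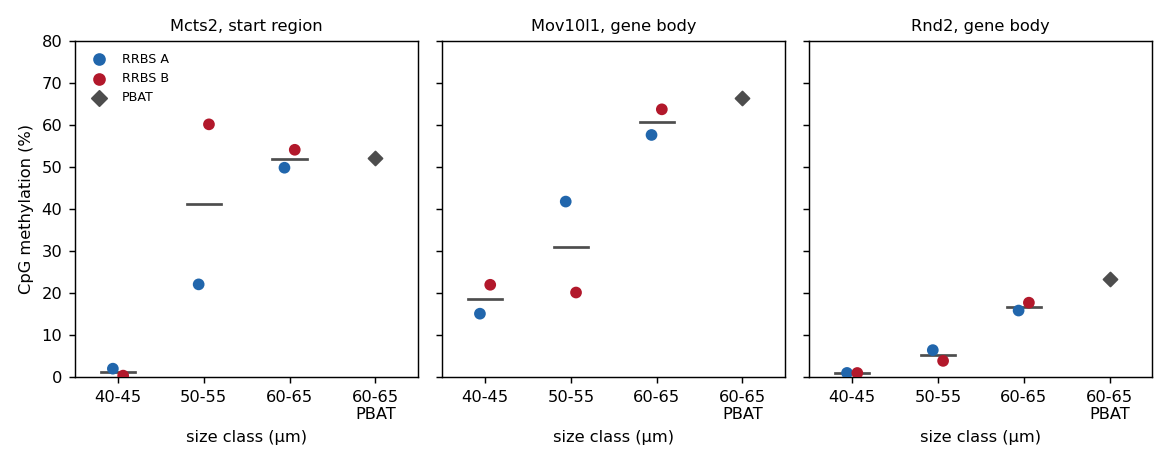
CpG methylation (percent) by size class for the Mcts2 start region and the gene bodies of Mov10l1 and Rnd2. Circles are RRBS libraries A (blue) and B (red), short lines their means, and diamonds the PBAT library; the Mcts2 start goes from under 3% to 52.3% in PBAT, with 22.1% and 60.2% in the 50–55 µm libraries.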

How the data were processed

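Oocytes were sorted by diameter, and RNA, RRBS and PBAT libraries were made from pools. The authors deposited RNA levels as RPKM per gene and size class, with coordinates on GRCm38, and per-cytosine methylation as a percent with counts of methylated and unmethylated calls. Per the labels and the submitters' processing notes, reads were trimmed with Trim Galore (0.3.5 and 0.2.8), RNA was aligned with TopHat2 2.0.9 and bisulphite reads with Bismark (0.14.0 and 0.10.0). The deposited RPKM values were scaled here by a trimmed mean (30% by ratio, 5% by level), genes of at least 0.5 RPKM in 2 of 8 libraries were kept, and log2(RPKM + 0.1) was tested with limma 3.58.1 (variance trend, all 8 growing-oocyte libraries, Benjamini-Hochberg threshold 0.05). Fold changes are therefore on the log2(value + pseudocount) scale, which understates the change of low genes; RPKM ratios have no pseudocount. The deposited counts of methylated and unmethylated calls were summed per gene body and tested with edgeR 4.0.16 (quasi-likelihood, library intercepts). PBAT percents were averaged over positions with at least 5 reads, both strands counted; the PBAT library had 99039028 calls (median 2 a position) and RRBS libraries 30000113 to 57319823.

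Both fits were tested on simulated data with known changes. Named genes were the highest, the steepest, the earliest and latest fallers, listed genes, and the extremes of the GV, methylation and threshold comparisons. Members, gene lists and motifs were chosen with earlier results of these data known. Whether the GV column is 1 library or a mean is not given in the sources used here. Alternatives tried were other pseudocounts, scalings, filters, read minimums, thresholds of the rule, the replicate block and leaving out single libraries of the classes compared. Of the 52 genes, 1 is counted but not reported by name here.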

Additional observations from a re-analysis of the deposited data

How the results depend on the processing

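Of the 52 genes, the 36 that fell from 40–45 to 50–55 µm became 19 with no filter on low values, where 20052 genes were tested, 33 with a pseudocount of 1, 36 with no scaling and 40 with the 4 libraries alone. Leaving out 1 library at a time gave 0 to 36, where the remaining library of a class was assumed to vary like the other classes. Of the 20 genes at 6-fold or more, 15 fell, and of the 25 at 5 RPKM or more, 21 did, counts that are smaller by construction. With the replicate letter as a block (replicate block) 49 fell, Mcts2 (limma, adjusted p = 0.035) and Sohlh2 (adjusted p = 0.015) among them. Deviations of A libraries correlated at 0.60, 0.59 and 0.67 among the 3 smaller classes but at -0.23, -0.03 and 0.11 with 60–65 µm. The letters were not taken to pair the samples, since the labels do not say that a letter marks a shared pool or batch and each class has only 2. The estimate of Lars2 ranged from -0.16 to 0.052 when single libraries were left out, above 0 without library B of 50–55 µm, and no other gene changed direction.

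The number of genes that met the rule was 104 at 3-fold, 20 at 6-fold, 89 at 1 RPKM, 25 at 5 RPKM and 50 after scaling; single-library means gave 42 to 60. The GV difference of -0.50 moved to -0.21 with a pseudocount of 1 and ranged from -0.62 to -0.36 without either 60–65 µm library. RRBS body gains in 2 of 4 genes became 7 of 13 with no minimum and stayed at 2 with the replicate block (correlations of deviations 0.06, 0.03 and 0.16) and without each library of 40–45 or 60–65 µm; the 50–55 µm libraries were not left out here.

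The PBAT median over all falling genes was 19.5% at 3 reads a position, 22.5% at 10, 13.3% with the start included and 20.4% from pooled calls. At 0.5 to 2 RPKM it was 19.01%, 31.2%, 14.3% and 20.4%, and at 2 to 10 RPKM 22.1% at 10 reads, 13.6% with the start and 30.8% pooled. The median of all genes in the same bin was above it in each case, between 32.7% and 52.8%. For the changed values other than those from subsets of genes or libraries, the cause was not tested. Of 11 genes with no PBAT body value, 8 were under 4 kb and 3 (Sycp3, Malat1 and Zfp947) had too few positions at 5 reads.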
